A study of Homo sapiens with 24 samples.

Results

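Among 24 arrays of Huh7.5.1 cells, 10 carried a log2 value of DDIT4 above 9.0 and 14 carried one below it, and these 2 sides are described here across all genes measured. DDIT4 itself chose the sides, so its difference and that of every gene that varies with it were selected by the split. No test was made between the sides, and differences between them are given as a description. Huh7.5.1 is a human hepatoma line. Its cells had received the milk thistle extract silymarin or its solvent, DMSO, for 4, 8 or 24 h, and every sample title carries the word novirus. The labels gave 4 arrays of DMSO and 4 of silymarin at 4 h, 5 and 3 at 8 h, and 5 and 3 at 24 h. No dose is given in the labels, and they do not tell whether the replicates were grown as separate cultures. The values were log2 expression levels made by RMA, and 18274 genes had a probe set with 1 gene symbol.

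DDIT4, also called REDD1, restrains the growth kinase complex mTORC1 and is induced by stress. Many of the genes described below are known targets of the integrated stress response. In that pathway, kinases that sense amino acid shortage, unfolded protein in the endoplasmic reticulum, haem shortage or viral RNA phosphorylate the initiation factor eIF2. General translation then slows while the transcription factor ATF4 is made, and ATF4 raises genes for amino acid import, amino acid synthesis, tRNA charging and glutathione turnover.

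ATF4 and C/EBP proteins bind composite DNA elements, for which the 8 letters TGATGNAA were searched on both strands. The windows ran from 250 bases before to 50 after each gene's start in the RefSeq promoter table (GRCh38.p14). Of 27305 genes in that table, 4.46% held a match, as did 3.60% of the 14122 measured genes with a window. Among the genes whose high arrays all lay above all low arrays, 95 of 111 had a window and 9 of these (9.47%) held a match. Of the 20 such genes with the largest differences, 15 had a window and 3 held one, namely CHAC1, ASNS and SLC1A4. The shares were 43.8% of 16 genes for cytosolic tRNA synthetases and 37.5% of 16 for amino acid transporters. They were 30.0% of 10 for asparagine, serine and one-carbon genes and 26.7% of 15 for regulators of the stress response. Of 10 cysteine and glutathione genes, 1 held a match. In the 55 genes with a window whose high arrays all lay below all low arrays, 1 (1.82%) held a match. The stretches below are those with a complete match before the start among non-overlapping genes at least 0.5 higher in the high arrays. They are written in the direction of the gene, with the match in capitals, which reads TTNCATCA where it lies on the opposite strand.
CHAC1, chr15:40953236-40953295, plus strand, match 209 to 202 bases before the start: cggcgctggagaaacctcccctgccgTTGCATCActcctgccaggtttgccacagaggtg
ASNS, chr7:97872443-97872502, minus strand, match 68 to 61 bases before the start: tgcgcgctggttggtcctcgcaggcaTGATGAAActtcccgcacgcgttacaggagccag
HERPUD1, chr16:56931940-56931999, plus strand, match 176 to 169 bases before the start: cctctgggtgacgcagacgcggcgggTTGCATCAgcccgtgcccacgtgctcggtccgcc
JDP2, chr14:75427980-75428021, plus strand, match 16 to 9 bases before the start: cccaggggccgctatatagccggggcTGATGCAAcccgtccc

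Treatment labels did not separate the sides. Of the 14 arrays labelled DMSO, 6 (42.9%) were on the high side, as were 4 of the 10 labelled silymarin, and Fisher's exact test, two-sided, gave p = 1.0 with an odds ratio of 1.12. All 6 groups held arrays of both sides. At 4 h, 2 of 4 DMSO arrays and 1 of 4 silymarin arrays were high. At 8 h the counts were 3 of 5 and 2 of 3, and at 24 h they were 1 of 5 and 1 of 3. By time, 3 of 8 arrays were high at 4 h, 5 of 8 at 8 h and 2 of 8 at 24 h, with an exact Fisher p of 0.454. The title of the series assigns a stress response to silymarin. Of the 10 arrays with these stress genes high, 6 are labelled DMSO, near the share of 14 among all 24 arrays. Whether each array carries the treatment its label names was not tested. Arrays numbered 1 in the titles were high in 5 of 6 groups and arrays numbered 2 in 0 of 6. Those numbered 3 were high in 2 of 6, those numbered 4 in 2 of 4 and those numbered 5 in 1 of 2. The labels do not say what a number marks, and this count was made after the values were seen.

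Array by array, DDIT4 was 9.69, 7.72, 7.64 and 10.01 in DMSO replicates 1 to 4 at 4 h. In silymarin at 4 h it was 10.34, 7.60, 8.05 and 7.69. Each group thus held values from both ends of the series and few between them. In DMSO at 8 h, DDIT4 was 9.67, 7.86, 7.50, 10.28 and 10.11, and in silymarin at 8 h 10.14, 7.74 and 10.05. At 24 h it was 8.00, 8.17, 10.30, 7.52 and 8.28 in DMSO, and 10.16, 8.15 and 8.35 in silymarin. The array just inside the threshold was DMSO replicate 1 at 8 h (9.67), and the array just outside was silymarin replicate 3 at 24 h (8.35), so no array lay between 8.35 and 9.67. The pooled SD of DDIT4 within the 6 label and time groups was 1.23, against 0.27 within the 2 sides. The sides were cut on DDIT4 itself, so a small spread within them follows from the split.

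**Figure D1:**
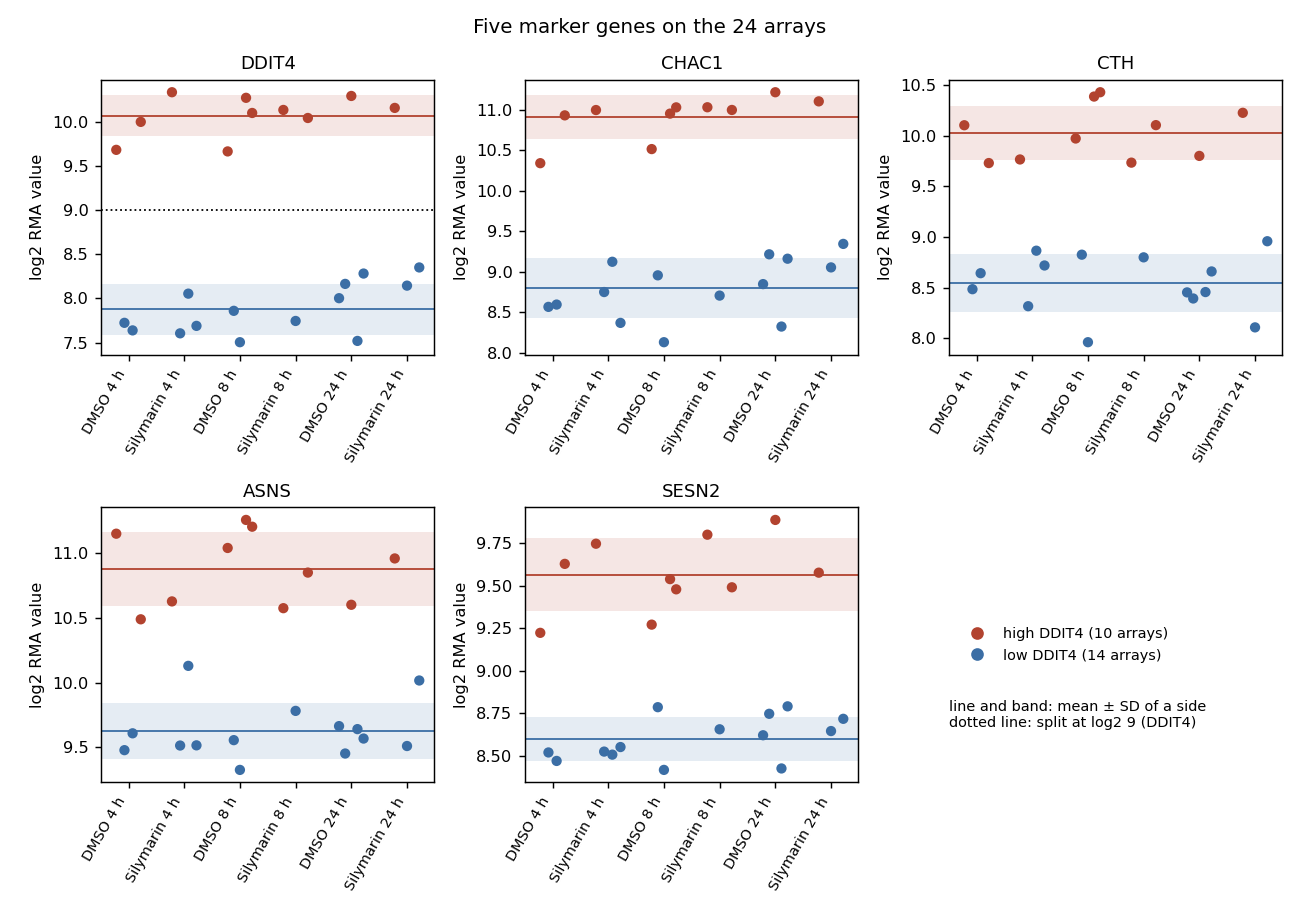
Log2 RMA values (vertical axis) of DDIT4, CHAC1, CTH, ASNS and SESN2 on the 24 arrays, by treatment and time (horizontal axis). Red points are the 10 high arrays and blue points the 14 low ones, lines and bands are the mean ± SD of a side, and the dotted line is the DDIT4 threshold of 9.0. Red and blue points occur in all 6 groups and do not overlap for any of the 5 genes.

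CHAC1 degrades glutathione and is a target of ATF4 and CHOP. It ranged from 10.34 to 11.22 in the high arrays (mean 10.91 ± 0.27, SD, n = 10) and from 8.13 to 9.35 in the low ones (8.80 ± 0.37, SD, n = 14). For CTH, which makes cysteine from cystathionine, the lowest, median and highest values were 9.73, 10.04 and 10.43 against 7.96, 8.56 and 8.96. ASNS, asparagine synthetase, lay at 10.49, 10.90 and 11.26 against 9.33, 9.56 and 10.13. Every high array was above every low array for these 3 genes. SESN2, a leucine sensor that also restrains mTORC1, lay at 9.22, 9.56 and 9.89 against 8.42, 8.59 and 8.79. The largest gap in the sorted values of each of the 4 genes left 10 arrays above it. All 24 arrays then fell on the same side as by DDIT4. The 4 genes were chosen with earlier results of these data known, so nothing is read from this agreement. The mean differences, high minus low, were 2.20 for DDIT4 (4.59-fold) and 2.12 for CHAC1 (4.34-fold). They were 1.48 for CTH, 1.25 for ASNS and 0.97 for SESN2. Taken only from arrays labelled DMSO, DDIT4 differed by 2.17 and CHAC1 by 2.11, and only from arrays labelled silymarin by 2.24 and 2.14. ASNS differed by 1.42 among DMSO arrays and by 1.01 among silymarin arrays. In the cells as a whole, a larger share of cells with these transcripts and more transcript per cell cannot be told apart.

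Across all 18274 genes, the lowest high array was above the highest low array for 111 genes (0.607%), and the reverse held for 66 (0.361%). A mean difference of at least 0.5, or 1.41-fold, was found for 60 genes higher (0.328%) and 100 genes lower (0.547%) in the high arrays. Of these, 59 of the 60 and 62 of the 100 had the same direction in all 6 label and time groups. These counts hold genes selected by the split, and nothing is read from their size. The median difference over all genes was -0.01 and 43.5% lay above 0. After arrays were re-centred to 1 median, 104 genes lay wholly above and 29 wholly below, in place of 111 and 66. Array medians spanned 7.04 to 7.17 on the high side and 7.06 to 7.18 on the low side. The first principal component took 25.8% of the variance, with high arrays between -0.24 and 21.6 and low arrays between -15.7 and -0.85.

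**Figure D2:**
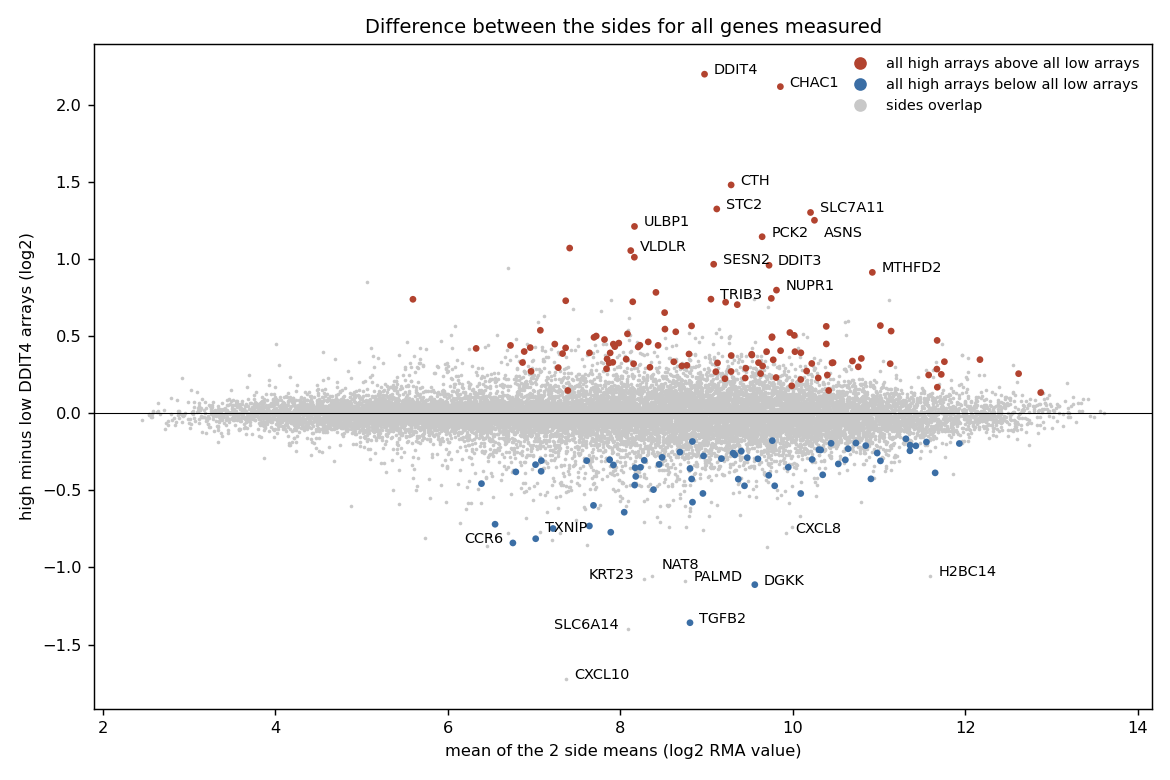
Mean difference between high and low DDIT4 arrays (vertical axis, log2) against the mean of both sides (horizontal axis, log2 RMA value), 1 point per gene for 18274 genes. Red marks the 111 genes whose high arrays all lay above all low arrays, blue the 66 whose high arrays all lay below, and grey the rest. DDIT4 (2.20) and CHAC1 (2.12) are at the top, and CXCL10 (-1.72), whose sides overlap, is at the bottom.

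Regulators of the stress response were among the genes higher in the high arrays. Of 18 measured, 7 lay wholly above and 0 wholly below, with a median difference of 0.34. Over all genes, 0.607% lay wholly above, 0.361% wholly below and 43.5% above 0, and these shares apply beside every list below. The lists were chosen with earlier results of these data known. ATF4, its main transcription factor, was named after its values were seen. It lay at 11.81, 11.89 and 12.09 (lowest, median, highest) in the high arrays and at 11.24, 11.47 and 11.68 in the low ones. Its means were 0.47 apart, and 0.32 apart when its probe sets were averaged. DDIT3, which encodes the pro-death factor CHOP, was 10.20 ± 0.36 (SD, n = 10) against 9.24 ± 0.17 (SD, n = 14). NUPR1, a stress-induced chromatin protein, was 10.21 ± 0.20 against 9.41 ± 0.27. TRIB3, a pseudokinase that binds ATF4 and CHOP, was 9.42 ± 0.29 against 8.68 ± 0.19, with n = 10 and 14 here and below. None of these 4 genes overlapped between the sides. KLHL24, JDP2 and CEBPB completed the 7, with differences of 0.72, 0.53 and 0.50. ATF3 differed by 0.42 and PPP1R15A, which returns eIF2 to its unphosphorylated form, by 0.38, both with overlap. Among the kinases that start the pathway, EIF2AK3, the kinase of endoplasmic reticulum stress, differed by 0.29. EIF2AK1 differed by 0.02, EIF2AK2 by -0.15 and EIF2AK4 by -0.16. Of 9 genes that restrain mTORC1, DDIT4 and SESN2 were the 2 without overlap, and the next largest difference was 0.16, for SESN3.

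Genes of cysteine and glutathione metabolism had 5 of 14 members wholly above and 0 wholly below, with a median of 0.11. SLC7A11, the cystine importer, lay at 10.55, 10.81 and 11.16 in the high arrays and at 8.93, 9.59 and 10.13 in the low ones, 1.30 apart. GCLC and MAT2A, which supply glutathione and S-adenosylmethionine, differed by 0.38 and 0.26 without overlap. With CHAC1 and CTH these made up the 5. GCLM, the partner of GCLC, differed by 0.51 and overlapped. In asparagine, serine and one-carbon metabolism, ASNS and MTHFD2 were the 2 of 14 members without overlap, and the list's median was 0.19, with 0.10 among silymarin arrays. MTHFD2, a mitochondrial folate enzyme, was 11.38 ± 0.13 against 10.46 ± 0.25. PSAT1 and PHGDH of serine synthesis differed by 0.45 and 0.31, with overlap. ALDH1L2, another mitochondrial folate enzyme, differed by 0.94 and overlapped, with 1.33 among DMSO arrays and 0.39 among silymarin arrays. Its mean over all arrays lay under the median of all values, 7.11. PCK2, mitochondrial PEP carboxykinase, lay at 9.77, 10.27 and 10.61 against 8.88, 9.09 and 9.24, 1.14 apart and without overlap.

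Amino acid transporters had members at both ends. Of 21 measured, 4 lay wholly above and 0 wholly below, with a median of 0.12, which was 0.19 among DMSO arrays and 0.03 among silymarin arrays. It was 0.25 with dim genes left out, those with a mean under the median of all values, 7.11. SLC1A4, a carrier of alanine, serine and cysteine, was 10.12 ± 0.26 against 9.38 ± 0.16. SLC43A1 differed by 0.35 and SLC3A2, the heavy chain shared by SLC7A11 and SLC7A5, by 0.29, both without overlap. SLC7A1, the carrier of cationic amino acids, differed by 0.74 with overlap. SLC6A14 differed by -1.40, with overlap, and SLC1A3 by -0.70. Of 19 cytosolic tRNA synthetases 15 lay above 0 and 2 did not overlap, CARS1 (0.54) and SARS1 (0.45). Their median was 0.14, with 0.22 among DMSO arrays and 0.04 among silymarin arrays. The 16 mitochondrial synthetases, encoded by other genes, had a median of -0.05 and 0 members without overlap. Of 23 translation factors 10 lay above 0, near the share of 43.5% over all genes, with a median of -0.03. EEF2, an elongation factor, was the 1 without overlap (0.13), and EIF4EBP1, the repressor of cap-dependent translation that mTORC1 inactivates, differed by 0.50 with overlap.

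**Figure D3:**
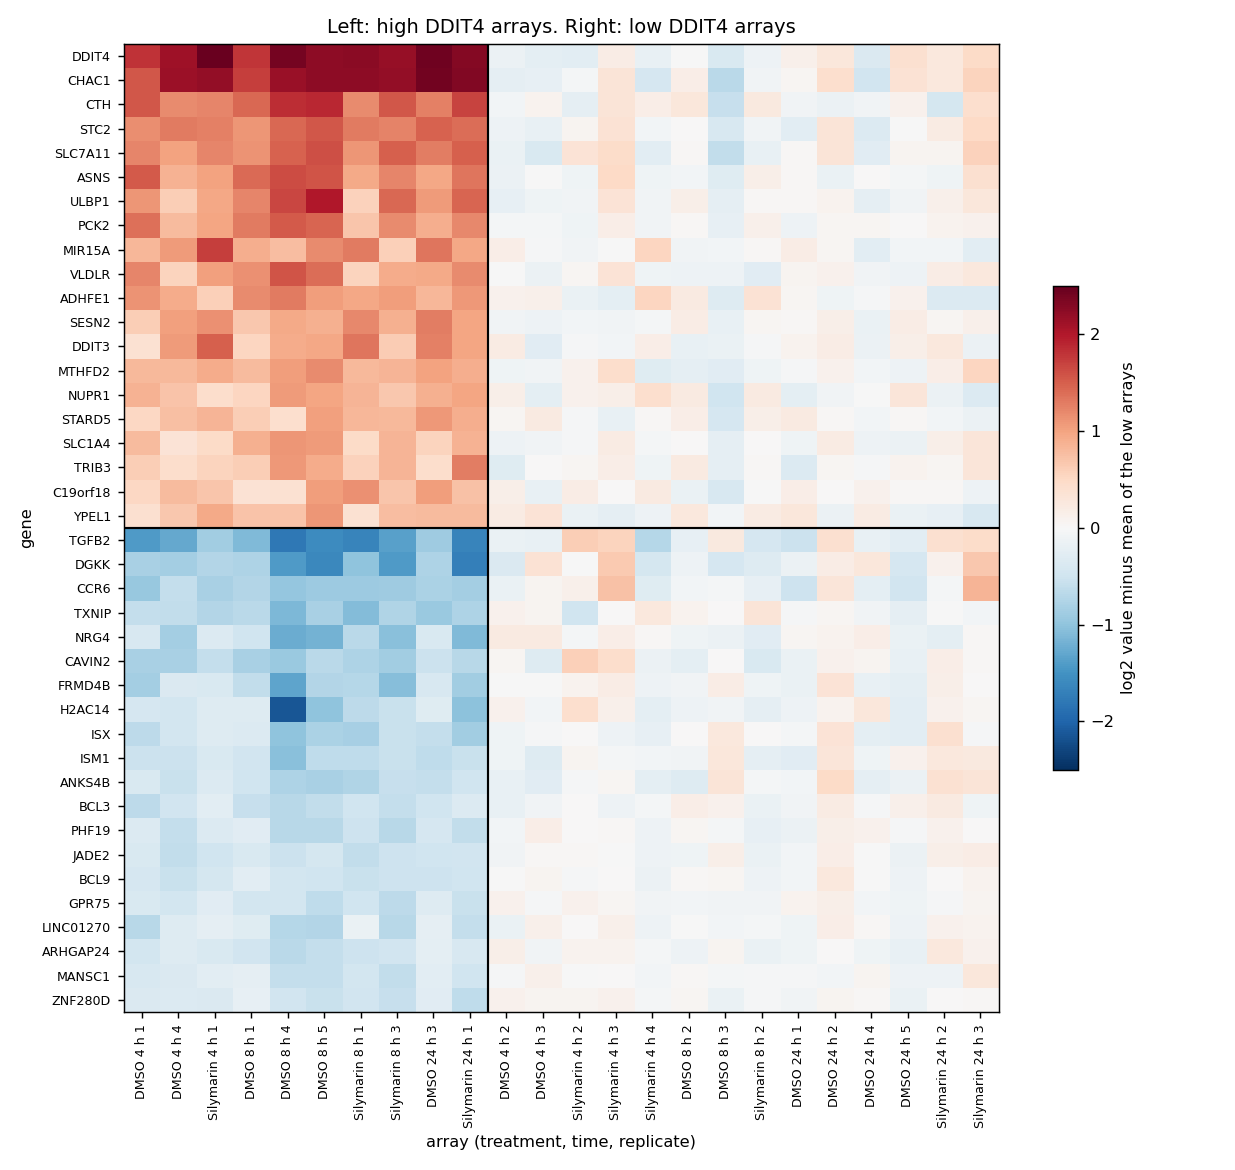
The 20 genes with the largest positive and the 20 with the largest negative mean difference among genes without overlap (rows), on all 24 arrays (columns, 10 high on the left and 14 low on the right), as log2 value minus the mean of the low arrays. DDIT4 and CHAC1 are darkest red on the left, and H2AC14 reached its lowest value of 4.78 in DMSO replicate 4 at 8 h.

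Further genes with large differences came from other lists or from none. STC2, a secreted glycoprotein of the stress response, was 9.78 ± 0.14 against 8.46 ± 0.27. ULBP1, a ligand that marks stressed cells for natural killer cells, lay at 8.13, 8.72 and 9.57 against 7.33, 7.53 and 7.90. VLDLR, a lipoprotein receptor, was 8.65 ± 0.33 against 7.59 ± 0.17. None of the 3 overlapped, and their differences were 1.32, 1.21 and 1.05. ADHFE1, STARD5, C19orf18 and YPEL1 were the remaining protein-coding genes among the 20 largest, at 1.01, 0.78, 0.74 and 0.73. C19orf18 was dim, with means of 5.91 high and 5.19 low among DMSO arrays, so its difference is read with less certainty. Of 16 secreted stress factors, STC2 was the 1 without overlap. GDF15, a stress cytokine, and INHBE, a hepatic activin subunit, each differed by 0.73 and overlapped. INHBE differed by 0.35 among silymarin arrays alone. FGF21, a hormone that the liver releases under amino acid shortage, differed by -0.01.

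MIR15A was the 1 miRNA gene among the 20. A microRNA represses transcripts that pair with its seed, bases 2 to 8 of the mature strand. MIR15A and MIR16-1 lie in the host transcript DLEU2, and their mature strands are shown because they share a seed. Capitals mark the seed.
hsa-miR-15a-5p, chr13:50049167-50049188, minus strand: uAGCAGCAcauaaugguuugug
hsa-miR-16-5p, chr13:50049027-50049048, minus strand: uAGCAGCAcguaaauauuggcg
The MIR15A probe set lay at 7.47, 7.89 and 8.60 in the high arrays and at 6.61, 6.83 and 7.41 in the low ones, 1.07 apart without overlap. The MIR16-1 probe set was dim, at 4.23 ± 0.13 against 4.15 ± 0.11 where the median of all values was 7.11, and a change of that transcript could not be read from it. DLEU2 differed by -0.32 with overlap. Total RNA was hybridised, and whether the MIR15A signal comes from the mature strand or a precursor was not tested.

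Most NRF2 targets and endoplasmic reticulum folding genes lay above 0, whereas the heat shock genes lay below. Of 19 measured targets of NRF2, the factor that answers oxidative stress, 18 lay above 0 and 5 did not overlap, with a median of 0.20. Besides SLC7A11 and GCLC the 5 held SRXN1 (0.56), OSGIN1 (0.51) and TXNRD1 (0.34). HMOX1, haem oxygenase, differed by 0.60 with overlap, and NQO1, another classical target, by -0.09. Among DMSO and silymarin arrays, HMOX1 differed by 0.39 and 0.90, SRXN1 by 0.43 and 0.76, and OSGIN1 by 0.38 and 0.71. SLC7A11 went the other way, at 1.41 and 1.16, and the list's median was 0.18 and 0.22. Whether these differences differed between the labels was not tested. Among 23 genes for protein folding and disposal in the endoplasmic reticulum, 20 were above 0 (median 0.07, with 0.13 among DMSO and 0.04 among silymarin arrays). DNAJB9 (0.70) and HERPUD1 (0.57) were the 2 without overlap, and HSPA5, the main chaperone of that compartment, differed by 0.14. All 15 heat shock genes lay below 0, with a median of -0.16, and 0 lacked overlap. HSPA4L differed by -0.42 and HSPH1 by -0.27. Of 28 proteasome subunits 2 lay above 0, with a median of -0.08, while 22 of 28 autophagy and lysosome genes lay above 0 with a median of 0.09.

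**Figure D4:**
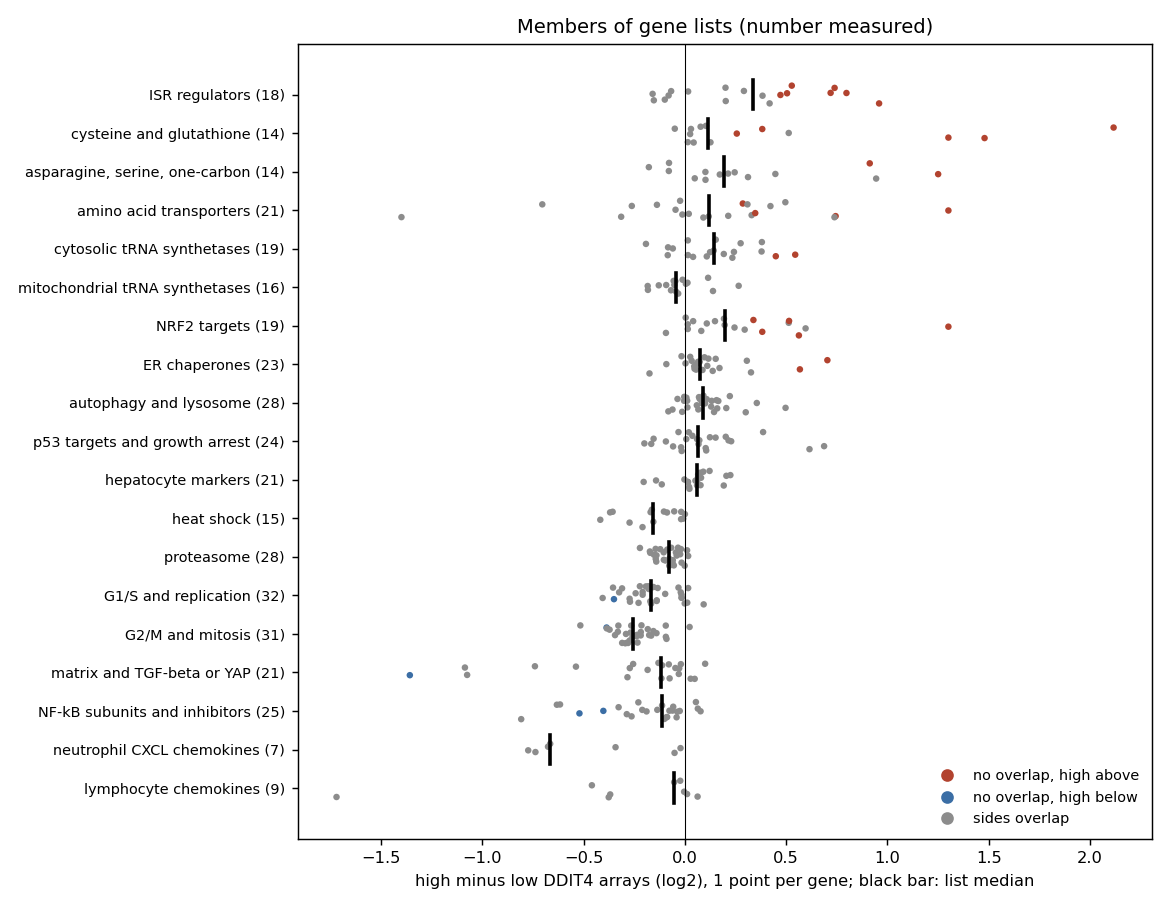
Mean difference between high and low DDIT4 arrays (horizontal axis, log2) for the members of 19 gene lists (vertical axis, number measured in brackets), 1 point per gene, with the list median as a black bar. Stress response regulators have a median of 0.34 and neutrophil chemokines one of -0.67, and red points, genes wholly above, lie in the amino acid and stress lists.

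Most cell cycle genes had lower means in the high arrays, by small amounts. Of 31 G2/M genes 30 lay below 0, with a median of -0.26, and PLK1, a mitotic kinase, was the 1 without overlap, at 11.20, 11.50 and 11.63 against 11.70, 11.83 and 12.00. AURKA and KIF14 differed by -0.37 and -0.52 with overlap. Of 32 genes of G1/S and replication 29 lay below 0, with a median of -0.17. UHRF1, which maintains DNA methylation, was the 1 without overlap (-0.35), and its difference was -0.18 when its probe sets were averaged. Of 24 growth arrest and p53 target genes 16 lay above 0, with a median of 0.06. TP53INP1 differed by 0.69, PMAIP1 by 0.61 and GADD45A by 0.39, all with overlap, and CDKN1A by 0.07. Of 27 immediate early genes 15 lay above 0, with a median of 0.02, and MYC, a growth-promoting transcription factor among them, differed by 0.59 with overlap. The feedback inhibitors of growth factor signalling SPRY4 and DUSP6 differed by -0.51 and -0.40, and DUSP6 by -0.21 among DMSO arrays alone.

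Among genes wholly below, TGFB2, a secreted cytokine that drives matrix production, lay at 7.71, 8.10 and 8.61 in the high arrays and at 8.78, 9.31 and 10.10 in the low ones, 1.36 lower in the mean of the high arrays. DGKK, a diacylglycerol kinase, lay at 8.40, 9.19 and 9.38 against 9.68, 10.04 and 10.79. CCR6, a chemokine receptor, was 6.33 ± 0.11 against 7.17 ± 0.40. None of these 3 genes overlapped. TXNIP, which limits glucose uptake and binds thioredoxin, lay at 6.29, 6.66 and 6.82 against 6.92, 7.43 and 7.75. Its difference was -0.79 among DMSO arrays and -0.84 among silymarin arrays. ARRDC4, which shares the glucose-responsive factor MLXIPL with TXNIP, differed by -0.06, and MLXIPL itself by 0.37. NRG4, a secreted growth factor, differed by -0.77, CAVIN2, a caveolar protein, by -0.75, and H2AC14, a histone, by -0.72. CCR6, TXNIP and H2AC14 were dim, with means over all arrays under 7.11, so their differences are read with less certainty. The rest of the 20 largest lay between -0.73 and -0.43 and held among others FRMD4B, ISX, ISM1, ANKS4B, PHF19, JADE2, BCL9, GPR75 and BCL3. Of 21 matrix and TGF-beta or YAP genes, 18 lay below 0, with a median of -0.12 (-0.18 with dim genes left out) and TGFB2 the 1 without overlap. PALMD (-1.09) and KRT23 (-1.08), both in that list, overlapped.

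**Figure D5:**
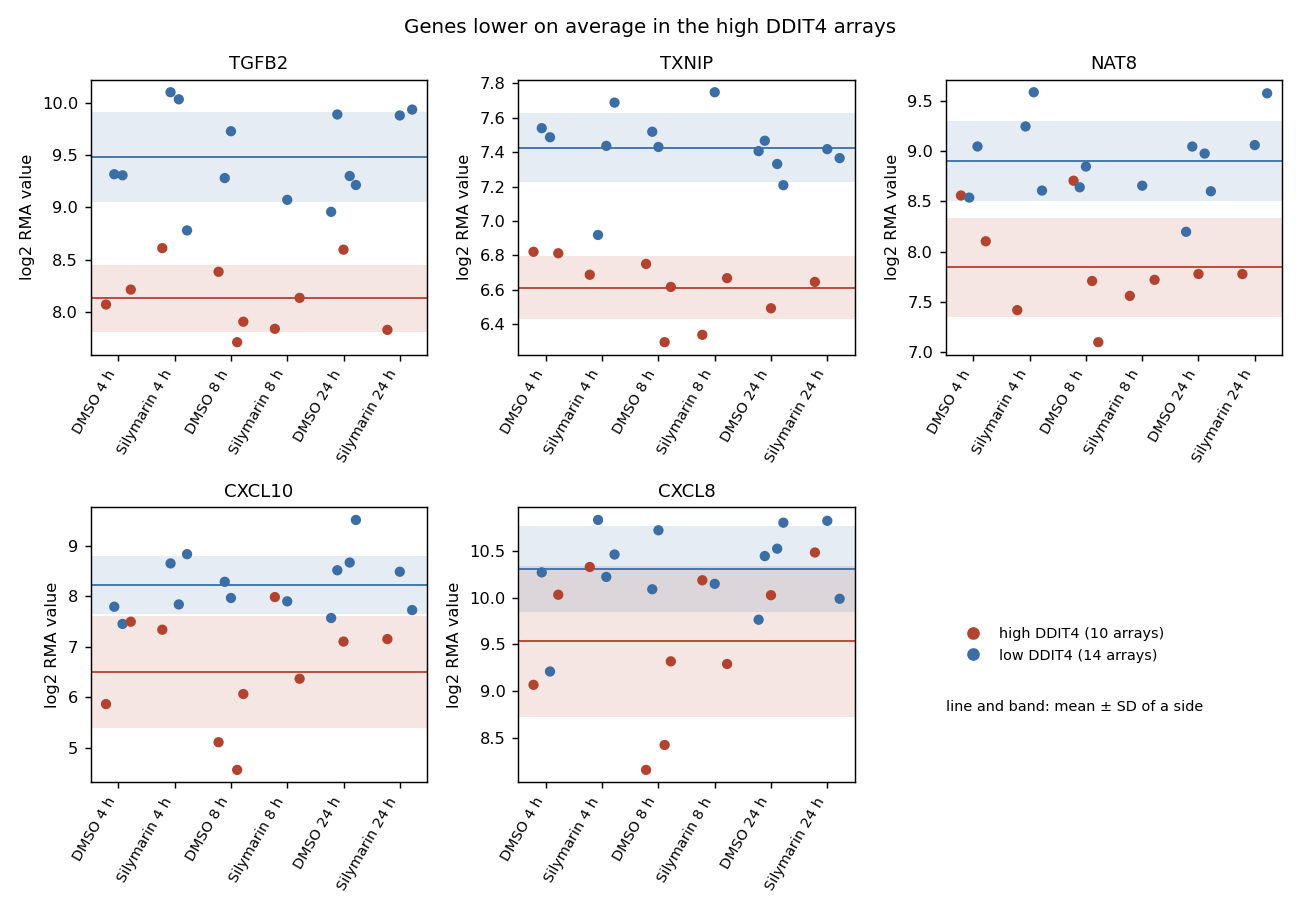
Log2 RMA values (vertical axis) of TGFB2, TXNIP, NAT8, CXCL10 and CXCL8 on the 24 arrays by treatment and time (horizontal axis), with high arrays in red, low arrays in blue, and the mean ± SD of each side as line and band. TGFB2 and TXNIP do not overlap, whereas CXCL10 and CXCL8 overlap and have their 3 lowest values in DMSO replicate 1 at 4 h and DMSO replicates 1 and 4 at 8 h.

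Chemokines and several targets of NF-kB had lower means in the high arrays, mostly with overlap, and their differences varied with which arrays were counted. CXCL10, which draws T cells, lay at 4.57, 6.74 and 7.98 in the high arrays and at 7.45, 8.12 and 9.51 in the low ones, the most negative mean difference of all genes (-1.72). Its values were 4.57 in DMSO replicate 4 at 8 h, 5.11 in DMSO replicate 1 at 8 h and 5.87 in DMSO replicate 1 at 4 h. Those 3 arrays were the lowest of all 24 for CXCL10, CXCL8, CXCL5, CXCL6, TNFAIP3, TNFRSF9, SLC6A14 and KRT23 as well. The difference of CXCL10 was -2.18 among DMSO arrays, -1.03 among silymarin arrays and -1.15 without those 3 arrays, a choice made after seeing the data.

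The neutrophil chemokines behaved alike in this respect. Their list of 7 had 0 members without overlap and a median of -0.67, which was -0.16 among silymarin arrays and -0.18 without the 3 arrays. CXCL8 lay at 8.16, 9.67 and 10.48 against 9.21, 10.36 and 10.83. Its difference of -0.77 was -0.35 without the 3 arrays. CXCL1 differed by -0.74, with -0.42 among silymarin arrays, and CXCL6 by -0.68, with -0.28 without the 3 arrays. CXCL5 differed by -0.67, with -0.16 among silymarin arrays and -0.18 without the 3 arrays. TNFAIP3, an inhibitor of NF-kB, differed by -0.63, and by -0.23 among silymarin arrays. TNFRSF9 differed by -0.62, by -1.05 among DMSO arrays and by 0.02 among silymarin arrays. SLC6A14, given above, differed by -0.77 without the 3 arrays. Whether the difference itself differed between the labels was not tested for any of these genes. The NF-kB list of 25 held effector genes such as IL18 and TNFRSF9 beside subunits and inhibitors. In that list 22 genes lay below 0, with a median of -0.11. The median was -0.19 among DMSO arrays, 0.02 among silymarin arrays and -0.04 without the 3 arrays. IL18, a cytokine, had the list's most negative difference (-0.81), with overlap, and was dim. NFKB1 and BCL3 were the 2 without overlap, at -0.40 and -0.52. NFKB1, the p105 and p50 subunit, lay at 9.35, 9.52 and 9.64 against 9.70, 9.90 and 10.15. The 27 interferon-stimulated genes had a median of -0.04 with IFIT1 at -0.46, and 22 acute phase genes a median of 0.02. With dim genes left out, 8 of the 27 interferon-stimulated genes remained, with a median of -0.02. IFIT1 was among the dim ones, and a change of the dim genes could not be read well.

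Within the high side the stress genes did not all order the 10 arrays alike. The correlation with DDIT4 over the 10 high arrays was 0.89 for CHAC1, 0.84 for SESN2 and 0.83 for DDIT3. It was -0.33 for ASNS, -0.26 for PCK2 and -0.04 for CTH. The 4 arrays with the highest DDIT3 (10.31 to 10.74) were DMSO replicate 4 and silymarin replicate 1 at 4 h, silymarin replicate 1 at 8 h and DMSO replicate 3 at 24 h. The same 4 arrays had the lowest ASNS (10.49 to 10.63), the highest SESN2 (9.63 to 9.89) and the lowest PCK2 (9.77 to 10.07) and the lowest CTH (9.73 to 9.80). Over the 14 low arrays the correlation with DDIT4 was 0.92 for CHAC1 and 0.76 for SESN2, and 0.42 for ASNS. By the lower of their 2 within-side correlations, the genes most like DDIT4 were CHAC1 (0.89), SESN2 (0.76), DDOST (0.70), STC2 and TBC1D25 (0.69 each), IFNE (0.69), NPC1 (0.69) and HERPUD1 (0.66). These are descriptions over 10 and 14 arrays, and the 8 genes were picked as the highest of all genes measured. IFNE was dim, with means of 3.49 high and 3.42 low among DMSO arrays and 3.53 and 3.40 among silymarin arrays. The median of all values was 7.11, and a likeness to DDIT4 could not be read from IFNE. DDOST, TBC1D25, IFNE and NPC1 differed between the sides by at most 0.10.

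The label contrasts did not use the split and could be tested. In limma's model of the 6 groups, 0 of 18274 genes (0.0%) had an adjusted p under 0.05 for silymarin against DMSO at 4, 8 or 24 h, while 453, 719 and 553 genes had an unadjusted p under 0.05. For DDIT4 the difference was -0.34 at 4 h, 0.23 at 8 h and 0.43 at 24 h (SE 0.77, 0.80 and 0.80), and the adjusted p by limma was 0.99993, 0.99377 and 0.99971. Leaving out 1 array moved the 4 h value of DDIT4 between -0.98 (without silymarin replicate 1) and 0.07 (without DMSO replicate 4). Its 8 h value ranged from -0.19 (without silymarin replicate 1) to 1.01 (without silymarin replicate 2). Its 24 h value ranged from -0.20 (without silymarin replicate 1) to 0.89 (without DMSO replicate 3). CHAC1 differed by -0.30, 0.33 and 0.48 at the 3 times and ASNS by -0.24, -0.07 and 0.38, none past the threshold. With 1 array left out these ranged from -0.86 to 0.14, -0.12 to 1.10 and -0.15 to 0.95 for CHAC1 at 4, 8 and 24 h. For ASNS they ranged from -0.47 to 0.09, -0.36 to 0.24 and -0.02 to 0.70, so all 9 values of these 3 genes turned sign with some array left out. With the side added to the model as an extra term, 0 genes passed at any time, and 556, 978 and 799 had an unadjusted p under 0.05. With quantile normalization repeated, 1 gene passed at 24 h.

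Lists of cell identity markers had 0 members without overlap. Over all genes the shares were 0.607% wholly above and 0.361% wholly below, so nothing is read from that 0. Of 21 hepatocyte genes 17 lay above 0, with a median of 0.06, and the list's mean level was 12.05 to 12.14 in the high arrays and 11.96 to 12.12 in the low ones. Endothelial, macrophage, lymphocyte and fibroblast lists of 11, 11, 11 and 10 genes had medians of -0.03, -0.03, 0.01 and -0.02. Their mean levels were 5.63 to 6.79 in the high arrays and 5.65 to 6.89 in the low ones. PDGFRA (-0.51) and PECAM1 (-0.48) were the members with the largest differences in these 4 lists. PECAM1 was dim, and it differed by -0.36 when its probe sets were averaged. When dim genes were left out, 2 of the 10 fibroblast genes remained, COL1A1 (-0.03) and PDGFRA, and the median was -0.27. Of 11 genes in each of the other lists, 3 endothelial, 4 macrophage and 2 lymphocyte genes remained. The hypoxia and glycolysis list had a median near 0, and VEGFA, which ATF4 also raises, differed by 0.27 while EGLN3 differed by -0.35 without overlap.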

How the data were processed

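Per the labels' protocols, total RNA was put on 24 arrays of the Affymetrix Human Gene 1.0 ST design. The deposited values are on a log2 scale, made by RMA with oligo according to the submitters' processing notes. The versions and genome build were not given in the sources used here. Of 28869 probe sets, 19302 had 1 gene symbol, 1729 had several and 7838 were not listed; the brightest of a gene's probe sets was kept.

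Members, lists and rules were chosen with earlier results of these data known. The sides were compared by means, SDs and overlap, with no test. Genes named were the 5 markers, the 20 largest differences without overlap in each direction, 4 members per list and the 8 genes most correlated with DDIT4 within both sides; others are named in the text as chosen later, or stand as further members of a list. The label contrasts were fitted with limma 3.58.1 in R 4.3.3 as 6 group means, adjusted by Benjamini-Hochberg over all genes. The scripts were tested on simulated data. Python 3.11.15 was used for the rest. The 38 lists held 814 entries, of which 747 were measured. Alternatives were re-centring, repeated quantile normalization, leaving out dim genes, averaging probe sets, trend and robust settings, the side as a term, a replicate block, arrays of 1 label, differences within groups, and leaving out arrays. The number of arrays limits the precision. Replicates may be technical, so p-values measure spread between samples.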

Additional observations from a re-analysis of the deposited data

Results flagged for a closer look

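Within single label and time groups, 6 of 20 sets of marker values held 1 array far from the rest, by its gap to the nearest other array as a share of the group's range. Chance flags about 1 in 20 such groups. The split was made on these values, so the high array of a group with 1 high array stands apart by construction. Silymarin replicate 1 at 4 h was highest in its group for DDIT4 (10.34) and SESN2 (9.75). DMSO replicate 3 at 24 h was highest for DDIT4 (10.30), CTH (9.80), ASNS (10.60) and SESN2 (9.89).

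Among the 10 high arrays, 6 of 182 named genes had 1 array far from the others. That is a smaller share than the one given above for chance, so nothing is read from these 6 genes or their arrays. They are listed as a description. DMSO replicate 4 at 8 h was lowest for H2AC14 (4.78), a histone, and for ISM1 (6.95). BCL9 was highest in DMSO replicate 1 at 8 h (9.76). MVK, an enzyme of cholesterol synthesis, was lowest in DMSO replicate 5 at 8 h (8.67). ULK1, an autophagy kinase, was highest in silymarin replicate 1 at 4 h (9.81). KDR was lowest in DMSO replicate 3 at 24 h (4.91).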

How the results depend on the processing

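Between the sides, the count of genes wholly above was 335 in DMSO arrays alone, 584 in silymarin arrays alone and 219 without the 3 arrays lowest in CXCL10, against 111. The count wholly below was 193, 774 and 176 under these settings and 29 after re-centring, against 66. Fewer arrays per side leave more genes without overlap by construction. Genes lower by at least 0.5 numbered 175 in silymarin arrays and 63 when differences were averaged within the 6 groups, against 100. TNFRSF9 turned to 0.02 in silymarin arrays, and the NF-kB median turned with it (each 0.0152). TNFRSF9 belongs to that list of 25 and was its middle member there, so the 2 are 1 value. Why TNFRSF9 turned was not tested. Leaving out each array gave 111 to 132 genes wholly above, 66 to 95 wholly below, 52 to 67 higher and 78 to 133 lower by 0.5, and 11 to 14 lists with a median of at least 0.1 in size. The odds ratio of side and label ranged from 0.938 to 1.5 and the p of side and time from 0.239 to 0.496. The label contrasts gave 0 to 0 genes when single arrays were left out. With quantile normalization repeated, 1 gene passed at 24 h. With the replicate number as a block in limma, 0 genes passed at each time and DDIT4 differed by -0.34, 0.42 and 0.62. Same-numbered arrays correlated between -0.14 and 0.43 in their deviations from the group means, so the numbers were not taken to pair samples. Of 6162 differences recomputed for the 182 named genes, 6149 moved by less than the spread between arrays within the sides. Most settings left out 1 array, which can hardly move a mean that far, so nothing is read from that count. It includes CXCL5, whose -0.67 became -0.18 without the 3 arrays lowest in CXCL10. The 24 arrays and their unequal groups limit what can be seen.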

Other observations

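Genes chosen after their values were seen, outside the lists, added further groups. Of 186 miRNA genes measured, 4 were at least 0.5 higher in the high arrays and 0 at least 0.5 lower, with a median of 0.01 over all 186; the shares over all genes were 0.328% and 0.547%. Besides MIR15A these were MIR122 (7.79 ± 0.26 in 10 high arrays against 7.11 ± 0.21 in 14 low arrays, SD), MIR21 (8.11 ± 0.66 against 7.45 ± 0.35) and MIR186 (0.50 higher), all 3 with overlap. MIR423 was 0.27 higher without overlap. miR-122 is the most abundant miRNA of hepatocytes and a host factor of hepatitis C virus, and miR-21 is raised in many tumours. Their mature strands, with the seed in capitals, share no seed with each other or with miR-15a.
hsa-miR-122-5p, chr18:58451088-58451109, plus strand: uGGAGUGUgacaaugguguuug
hsa-miR-21-5p, chr17:59841273-59841294, plus strand: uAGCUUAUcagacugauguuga
The sequences are from RefSeq (GRCh38.p14), and the array does not tell precursor from mature strand.

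Most histone genes had lower means in the high arrays, as did 5 liver genes picked after their values were seen, whereas 17 of the 21 listed hepatocyte markers lay above 0. Of 58 replication-dependent histone genes 51 lay below 0, with a median of -0.12, against 43.5% of all genes above 0. H2BC14 lay at 9.88, 10.91 and 11.92 (lowest, median, highest) in the high arrays and at 11.55, 12.10 and 12.43 in the low ones, and H2BC3 and H2AC4 differed by -0.66 and -0.58. NAT8, an acetyltransferase of liver and kidney, was 7.84 ± 0.49 against 8.90 ± 0.40, and its neighbour NAT8B differed by -0.71. These 2 genes are near-identical copies, and their probe sets may share signal. NAT8 differed by -0.74 among DMSO arrays and by -1.50 among silymarin arrays. SLC22A9, an organic anion carrier of the liver, differed by -0.87, AKR1D1, a bile acid enzyme, by -0.60 and SERPINA7, thyroxine-binding globulin, by -0.62, all with overlap. CIRBP, an RNA-binding protein induced by cold, was 0.53 higher and TUBE1, a tubulin, 0.72 higher in the high arrays, both without overlap.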
